A study of Mus musculus with 8 samples.

Results

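Endothelial-like nuclei were examined in single nuclei RNA sequencing (snRNA-seq) of the ventricular-subventricular zone (V-SVZ), the neurogenic wall of the lateral ventricle. A nucleus was a member when its droplet barcode had at least 300 detected genes, fewer than 30% of its unique molecular identifiers (UMIs, counted transcripts) from mitochondrially encoded genes, at least 4 UMIs over *Flt1*, *Ptprb*, *Mecom*, *Cldn5* and *Pecam1*, and fewer than 5 UMIs over the astroglial genes *Gpc5*, *Luzp2* and *Rgs20*. Members were therefore chosen by the expression of these 8 genes. The rule found 110 nuclei among 4475 that met the limits on genes and mitochondrial UMIs, and these in turn were part of 37881 barcodes with at least 300 genes.

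Nuclei came from 8 mice at postnatal day 90, of which 4 were *Tsc2* wt/wt and 4 were *Tsc2* mut/mut, and each mouse gave 1 library. *Tsc2* encodes tuberin, a subunit of the complex that restrains the kinase complex mTORC1. Per the methods, the study used the conditional allele *Tsc2* tm1.1Mjg and a *Rosa26* tdTomato reporter that Cre recombinase switches on. Cre reached neonatal pups by either of 2 routes, an electroporated CAG-CRE plasmid or a tamoxifen-inducible Cre driven by *Nestin* (Nestin-CRE-ERT2), a promoter of neural stem cells, with (Z)-4-hydroxytamoxifen and the DNA label EdU. The methods do not state the route for these 8 mice, although the study's heading on these data speaks of single cell knockout, as its heading on electroporation does, and they do not list the alleles mouse by mouse. Nuclei positive for tdTomato were sorted from both genotypes. The sort, which removed doublets and took 100000 nuclei with tdTomato from each mouse, was not made for vessels. A library held from 11182335 to 36773832 UMIs. The mouse was the replicate, since nuclei of 1 mouse share their source, so p-values measure the spread between mice.

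Endothelial cells line the blood vessels. In the brain they form the blood-brain barrier, in which claudin tight junctions close the gaps between cells, few vesicles cross, and dedicated transporters carry glucose, amino acids and hormones inward and pump drugs outward. Their identity is kept by vascular endothelial growth factor (VEGF) and angiopoietin-Tie receptors, by ETS, SOX and forkhead transcription factors and by Wnt and Norrin signals. In the V-SVZ, vessels run along the stem cell niche, and factors from their endothelium act on the stem cells.

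The label held for most members, but 9 of the 110 went against it. These 9 nuclei carried UMIs of *Mecom* alone among the 5 endothelial genes, from 4 to 12 each. *Mecom* (also called *Evi1*) encodes a zinc finger transcription factor, and here it was also present outside vessels, at 104 CPM (UMIs of a gene scaled to a sum of 1000000) in the summed ependymal-like nuclei. Of the 9 nuclei, 7 lay in *Tsc2* wt/wt mice and had from 40 to 168 UMIs of the ependymal cilia genes *Cfap299*, *Dnah12*, *Spag16* and *Dnah6*. The other 2 lay in *Tsc2* mut/mut mouse 1 and had 155 and 272 UMIs of choroid plexus markers. Together the 9 had no UMI of the endothelial receptor gene *Adgrl4* and 8 UMIs of the barrier transporter gene *Slco1a4*, all in the 2 nuclei with choroid plexus markers. In contrast, 78 members had UMIs of all 5 endothelial genes and 14 had UMIs of 4. Results are therefore given with all 110 members and with the 101 that had at least 2 of the 5 genes, a repeat added after the data had been seen.

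**Figure D1:**
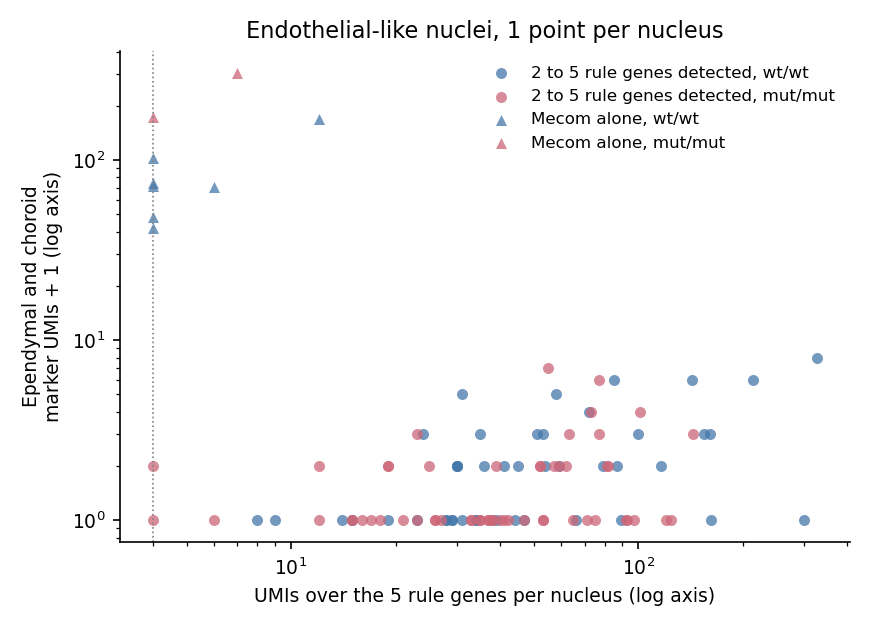
Each point is 1 of the 110 endothelial-like nuclei, by its UMIs over the 5 endothelial genes of the rule (x axis, log) and its UMIs of ependymal and choroid plexus markers plus 1 (y axis, log), with colour for the genotype and triangles for nuclei with UMIs of *Mecom* alone. The 9 triangles lie at 4 to 12 endothelial UMIs and far above all circles on the y axis.

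The rule's sum had a median of 38 UMIs per member and a maximum of 326, so most members lay far from the threshold of 4. Just inside it, 8 members had 4 UMIs and none had 5, and 6 of these 8 were nuclei with *Mecom* alone. Just outside it, 15 nuclei had 3 UMIs and 26 had 2. *Slco1a4*, a barrier transporter gene outside the rule, stood at 3405 CPM in members with 6 or more UMIs, at 331 CPM in those with 4 or 5 and at 50.6 CPM in nuclei with 2 or 3. In members with 4 or 5 it rested on 10 UMIs, 7 of them in nuclei with *Mecom* alone.

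Members carried from 448 to 23520 UMIs, with a median of 3862 UMIs and 1872 genes, against a median of 2228 UMIs in the other 4365 nuclei with few mitochondrial UMIs. *Adgrl4*, which the rule did not use, was detected in 88.2% of members, in 0.138% of the other nuclei and in 0.298% of 1344 astroglial nuclei, which had a median depth of 3472 UMIs. *Flt1*, a gene of the rule, was detected in 91.8%, 0.390% and 0.223% of these, shares that the selection largely fixed. Among the 33406 barcodes with 30% or more mitochondrial UMIs, which were not eligible, 20 had at least 4 UMIs of the endothelial genes. Of these 20, 8 lay in *Tsc2* mut/mut mouse 4, which kept 5 members, and 6 in *Tsc2* wt/wt mouse 2, which kept 27. Of the 37714 distinct barcode sequences, 166 occurred in 2 or more libraries, and 1 member had a barcode that was also kept in another library.

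The first question was whether the share of endothelial-like nuclei differed with genotype. In *Tsc2* wt/wt mice 1 to 4, members numbered 13, 27, 7 and 5, and their shares of the nuclei with few mitochondrial UMIs were 4.05%, 3.62%, 2.65% and 1.30%. In *Tsc2* mut/mut mice 1 to 4, members numbered 20, 15, 18 and 5, and the shares were 2.30%, 3.71%, 1.48% and 1.84%. The ranges overlapped, and within-mouse precision was low, since the exact (Clopper-Pearson) 95% interval for the 5 members of *Tsc2* wt/wt mouse 4 ran from 0.423% to 3.00%. These intervals cover counting error only.

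The share averaged 2.91% ± 1.22 (SD, n = 4) in the *Tsc2* wt/wt group and 2.33% ± 0.978 (SD, n = 4) in the other group, a difference within the spread between mice (two-sided exact permutation test over mice, p = 0.486, where the smallest p possible is 0.0286). The difference was −0.571 percentage points, and it was −0.190 without *Tsc2* wt/wt mouse 1, −0.333 without *Tsc2* wt/wt mouse 2, −1.11 without *Tsc2* wt/wt mouse 4, −1.03 without *Tsc2* mut/mut mouse 2 and −0.288 without *Tsc2* mut/mut mouse 3. The lowest exact permutation p over all 8 such repeats was 0.171. With a mouse left out the smallest p possible is 0.0571, so none of these repeats could pass 0.05. Without the 9 nuclei with *Mecom* alone, the shares were 2.37% ± 0.967 and 2.28% ± 0.988 (n = 4 each, exact permutation p = 0.943). With each nucleus thinned to 1000 UMIs, which left out 382 shallower nuclei of *Tsc2* wt/wt and 484 of *Tsc2* mut/mut mice, they were 3.11% ± 1.10 and 2.77% ± 1.44 (n = 4 each, exact permutation p = 0.771). When nuclei with 5 or more UMIs of another cell type's markers were left out, the difference turned to 0.237 percentage points higher in *Tsc2* mut/mut (exact permutation p = 0.543, n = 4 each). Median UMIs per member were 4946 ± 1338 in *Tsc2* wt/wt mice and 4257 ± 1135 in *Tsc2* mut/mut (n = 4 each, exact permutation p = 0.457). The median mitochondrial share per member was 12.1% ± 4.62 and 16.6% ± 5.73 (n = 4 each, exact permutation p = 0.314), with the highest value, 24.5%, in *Tsc2* mut/mut mouse 4.

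**Figure D2:**
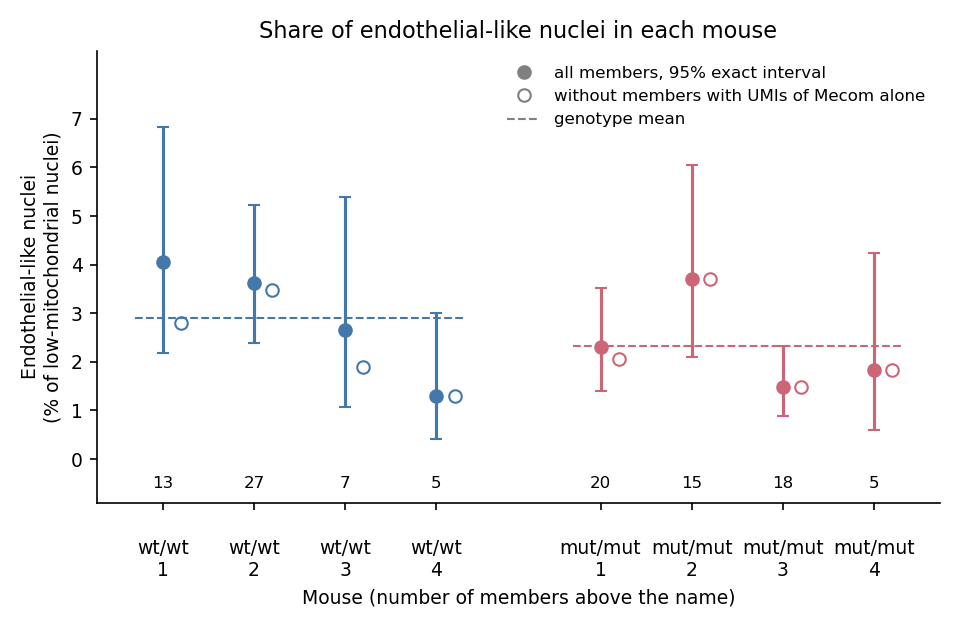
Share of endothelial-like nuclei among nuclei with at least 300 genes and under 30% mitochondrial UMIs (y axis, percent) in each of the 8 mice, with filled points for all members, bars for the 95% exact interval, open points without nuclei with *Mecom* alone, and dashed lines for genotype means. The filled points run from 1.30% to 4.05% in *Tsc2* wt/wt mice and from 1.48% to 3.71% in *Tsc2* mut/mut, so the genotypes overlap.

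The transcript profile of members was set against the other nuclei of the same mouse, as the log2 ratio of CPM + 10, and is a description, with no test, because expression chose the members. A gene was past the fold when its mean ratio over 8 mice was at least 4-fold, it was higher in all 8 mice and its mean level in members was at least 50 CPM. Of 3721 genes at that level, 407 were past the fold, which is 10.9%, and the median log2 ratio was 0.30. The 5 endothelial genes of the rule stood at log2 ratios of 8.73 (*Flt1*), 7.48 (*Ptprb*), 7.02 (*Cldn5*), 6.53 (*Mecom*) and 5.39 (*Pecam1*). *Flt1* encodes VEGF receptor 1, *Ptprb* the phosphatase that restrains the receptor Tie2, *Cldn5* the main claudin of the barrier and *Pecam1* the adhesion molecule CD31. Without the 9 nuclei, 424 of 3611 genes (11.7%) were past the fold, and 402 of the 407 were among them.

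Outside the rule, the highest ratios were those of *Adgrl4*, an adhesion G protein-coupled receptor of endothelium, and *Slco1a4*, an organic anion transporter of the blood-brain barrier. *Adgrl4* stood at 1629, 2411, 676 and 2522 CPM in *Tsc2* wt/wt mice 1 to 4 and at 2242, 3458, 1819 and 1448 CPM in *Tsc2* mut/mut mice 1 to 4. *Slco1a4* stood at 2168, 3343, 3043 and 3553 CPM in *Tsc2* wt/wt mice and at 3086, 3782, 3806 and 3860 CPM in *Tsc2* mut/mut. Both overlapped between genotypes, and every mouse lay far above the mean of the other nuclei, 1.17 CPM for *Adgrl4* and 17.0 CPM for *Slco1a4*. *Ebf1* (log2 ratio 6.97, SD 0.71 over 8 mice), which encodes a transcription factor also known from B cells and pericytes, *Ly6c1* (6.93, SD 0.27) and *Ly6a* (6.63, SD 0.44), which encode small surface proteins of endothelium, and *Cxcl12* (6.76, SD 0.60), which encodes a chemokine, followed.

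The 25 leading genes outside the rule spanned log2 ratios from 5.28 to 7.39, all 25 stayed past the fold without the 9 nuclei, and their lowest level in any mouse was 268 CPM. Besides those named they included genes of receptors and surface proteins (*Adgrf5*, *Tek*, *Emcn*, *Eng*, *Podxl*, *Itga1*, *Itm2a*), of transport (*Abcb1a*, *Slc7a5*, *Atp10a*), of the matrix (*Spock2*, *Hmcn1*), of secreted factors (*Sema3c*, *Egfl7*, *Kitl*), of cytoplasmic proteins (*Nostrin*, *Jcad*), of the membrane protein *Cyyr1* and of the nuclear factor *Zfp366*. *Kitl*, stem cell factor, was at 1144 CPM ± 385 over mice (log2 ratio 5.35). At the other end, 3742 genes had at least 50 CPM in the other nuclei. Of these, 582 were at least 4-fold lower in members by the mean ratio and lower in all 8 mice. Among them were *Ttr* (log2 ratio −10.65), the transthyretin gene of the choroid plexus, and *Gpc5* (−7.35), a gene of the rule.

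**Figure D3:**
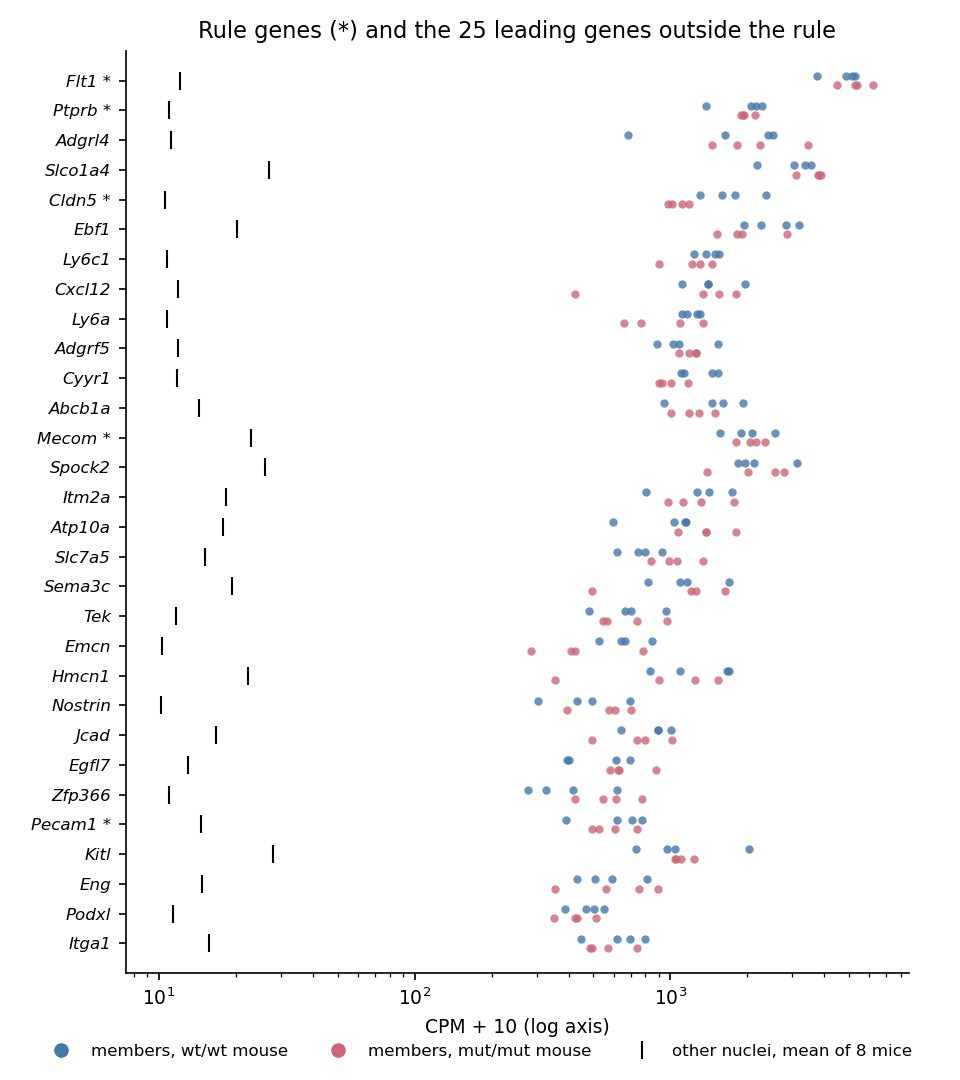
Levels (x axis, CPM + 10, log) of the 5 endothelial genes of the rule (asterisks) and the 25 leading genes outside it, with 1 point per mouse for the summed members, coloured by genotype, and a bar for the mean of the other nuclei over 8 mice. For each gene all 8 mice lie well above the bar, and the genotypes overlap except for *Cldn5*. Among this many genes, 1 can separate in this way without a genotype difference.

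Promoter sequences are shown for 3 of these genes because ETS factors, which bind sites with a GGAA core, were among the members' transcripts. The windows are 300 bases, 250 before and 50 after the gene start, from RefSeq on GRCm38.p6, 5′ to 3′ on the gene's strand, and capitals mark CNGGAAG on either strand. Of 27025 windows, 31.6% held this motif. Of 8 windows read, for *Flt1*, *Mecom*, *Cldn5* and 5 leading genes outside the rule, 3 held a match and 5 did not, and the windows shown are 2 with a match and 1 without. Windows were found for 305 of the 407 genes past the fold, 74.9%, and no motif share over the set is given. The *Flt1* window (chr5:147725962-147726261, minus strand) and the *Cxcl12* window (chr6:117168285-117168584, plus strand) held 1 match each, and the *Cldn5* window (chr16:18776597-18776896, plus strand) held none.
Flt1: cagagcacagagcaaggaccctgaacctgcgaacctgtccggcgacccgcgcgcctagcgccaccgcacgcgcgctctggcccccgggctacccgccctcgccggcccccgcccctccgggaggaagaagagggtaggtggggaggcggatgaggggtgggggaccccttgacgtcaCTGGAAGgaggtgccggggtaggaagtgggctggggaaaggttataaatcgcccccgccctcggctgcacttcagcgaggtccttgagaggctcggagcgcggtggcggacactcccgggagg
Cxcl12: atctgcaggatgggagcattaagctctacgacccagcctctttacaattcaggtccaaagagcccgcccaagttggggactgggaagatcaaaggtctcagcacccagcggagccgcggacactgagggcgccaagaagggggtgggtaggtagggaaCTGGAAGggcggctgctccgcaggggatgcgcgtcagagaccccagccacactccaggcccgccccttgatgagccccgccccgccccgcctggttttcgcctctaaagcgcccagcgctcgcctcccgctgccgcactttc
Cldn5: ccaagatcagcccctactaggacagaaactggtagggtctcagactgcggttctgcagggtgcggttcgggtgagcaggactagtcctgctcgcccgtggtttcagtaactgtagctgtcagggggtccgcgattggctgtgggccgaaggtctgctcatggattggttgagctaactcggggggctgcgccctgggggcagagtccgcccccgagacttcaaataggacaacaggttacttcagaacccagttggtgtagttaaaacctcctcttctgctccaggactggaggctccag

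VEGF, Tie and transforming growth factor receptors, which carry survival and growth signals into the endothelium, were the list with the largest part past the fold after the adhesion genes, 11 of 13, although 2 of the 13 were genes of the rule. *Kdr*, VEGF receptor 2, stood at 321 CPM ± 95.9 (SD over 8 mice, log2 ratio 4.61), and *Tek*, which encodes Tie2, at 695 CPM ± 185 (5.89). *Flt4*, VEGF receptor 3, had 125 CPM ± 88.7 (3.50). The transforming growth factor coreceptor gene *Eng* stood at 603 CPM ± 190 (5.34). Broader receptors were closer to the limit, with log2 ratios of 2.24 for *Tgfbr2* and 2.20 for *S1pr1*, and both were also present in other classes of nuclei. *Tgfbr2* was at 330 CPM in members, lower than the 426 CPM in microglia-like nuclei.

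Junction and adhesion genes were past the fold in 12 of 14 cases, 2 of them genes of the rule. *Cdh5*, VE-cadherin, stood at 341 CPM ± 86.3 (log2 ratio 5.03) and was detected in 57.3% of members. *Esam* and *Emcn*, adhesion and surface proteins of endothelium, had log2 ratios of 5.12 and 5.72. The tight junction genes *Ocln* (3.53) and *Tjp1* (2.30) were past the fold by less, and *Tjp1* was at 363 CPM in the other nuclei.

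Of 22 genes of transport across the blood-brain barrier, 13 were past the fold, and 15 were without the 9 nuclei. *Slco1c1*, a thyroid hormone carrier, was at 2161 CPM ± 552 with a log2 ratio of only 2.65, since the other nuclei held 332 CPM. *Slc2a1*, the glucose carrier GLUT1, stood at 1272 CPM ± 231 (5.28), *Abcb1a*, the efflux pump P-glycoprotein, at 1354 CPM ± 327 (6.57) and *Abcg2*, another efflux pump, at 950 CPM ± 251 (5.14). *Slc7a5*, which carries large neutral amino acids, stood at 905 CPM ± 223 (5.90). *Tfrc*, the transferrin receptor, was detected in 58.2% of members. *Mfsd2a*, which carries lysolipids and limits vesicles, was detected in 41.8%. Its log2 ratio was 2.56, but it was higher in only 7 of 8 mice and so was not past the fold. *Tsc2* mut/mut mouse 4, with 5 members, had no UMI of it. It was singled out after its values were seen. The detection shares are of nuclei of unequal depth.

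Of 22 transcription factors of endothelium, 15 were past the fold, 1 of them *Mecom*, and *Heyl* had no UMI. The ETS genes *Erg* (log2 ratio 4.72), *Ets1* (4.67), *Fli1* (3.15) and *Elk3* (2.71) were among them. *Fli1* was at 868 CPM in members, lower than the 1133 CPM in microglia-like nuclei. *Sox17* (4.34) and *Sox18* (3.13) of the SOX family and *Foxq1* (4.87) and *Foxf2* (3.23) of the forkhead family were at no more than 1.30 CPM in any other class of nuclei. *Klf2* (4.95) and *Klf4* (4.17), genes that respond to blood flow, were past the fold as well, as was *Epas1* (3.62), which encodes HIF-2α.

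Wnt and Norrin signalling, which keeps the barrier program in brain endothelium, had 7 of 15 genes past the fold. *Lef1*, a nuclear effector of the pathway, stood at 1248 CPM ± 344 (log2 ratio 5.20) and *Apcdd1*, an inhibitor and target of it, at 375 CPM ± 99.0 (4.76). *Adgra2*, the coreceptor GPR124, stood at 114 CPM ± 47.1 (3.23), and *Fzd6*, *Ctnnb1* (β-catenin), *Nkd1* and *Sox17* made up the rest. In the Notch list 2 of 13 genes were past the fold, the ligand genes *Dll4* (2.67) and *Jag2* (3.60), while *Notch1* had a log2 ratio of 1.64. Of the 13, 9 had a mean of 50 CPM or more, a level at which 10.9% of all genes were past the fold. *Maml2*, a coactivator and the most abundant gene of that list, was at 764 CPM in members and 785 CPM in the other nuclei.

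Some genes of arteries and of veins were detected among the members, while others of the same lists were not. *Vwf*, a gene of veins and large vessels, was detected in 38 nuclei, *Slc38a5*, a venous amino acid carrier, in 21 and *Car4*, of the venous list, in 49. The arterial genes *Gkn3* and *Bmx* were detected in 14 each and the arterial ligand gene *Efnb2* in 26. *Bmx* and *Efnb2* were chosen after their values were seen. In the other nuclei the shares with a UMI ran from 0.0458% (*Slc38a5* and *Bmx*) to 3.12% (*Efnb2*). Of the arterial list 4 of 17 genes and of the venous list 1 of 12 were past the fold. Only 11 of the 17 and 5 of the 12 had the mean of 50 CPM that the fold required. Of all 3721 genes at that level, 10.9% were past the fold. The most abundant gene of the venous list, *Tmsb10*, was at 462 CPM in members and at 355 CPM in free RNA (the 20000 barcodes with the fewest UMIs in each library), and no split of members into segments was made. *Vwf* stood at 33.7, 211, 135 and 38.2 CPM in *Tsc2* wt/wt mice and at 302, 324, 183 and 620 CPM in *Tsc2* mut/mut mice. The ranges overlapped, and the highest value came from a mouse with only 5 members.

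Basement membrane genes, whose proteins form the sheet on which vessels rest, were past the fold in 7 of 13 cases, with *Sparc* at 874 CPM ± 340 (log2 ratio 2.63), *Itga1*, an integrin, at 596 CPM ± 130 (5.28) and the collagen gene *Col4a1* at 270 CPM ± 119 (3.93). In the interferon and MHC class I list 7 of 14 genes were past the fold, among them *Ly6e* (4.58), *H2-D1* (3.48), *H2-K1* (3.23) and *B2m* (2.72). Of 12 genes of activated endothelium 7 had no UMI, including the selectin genes *Sele* and *Selp*. *Nfkbia*, an inhibitor of NF-κB, was the only one past the fold (272 CPM ± 112, log2 ratio 3.15). It was also the only 1 of the 12 with the mean of 50 CPM that the fold required. A sum of 536600 member UMIs allows a level of up to 5.59 CPM for a gene without UMIs (3 counts of the total). In the hypoxia list only *Epas1* and *Slc2a1* of 14 genes were past the fold. Of the 14, 4 had a mean of 50 CPM or more, where the share past the fold over all genes was 10.9%.

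**Figure D4:**
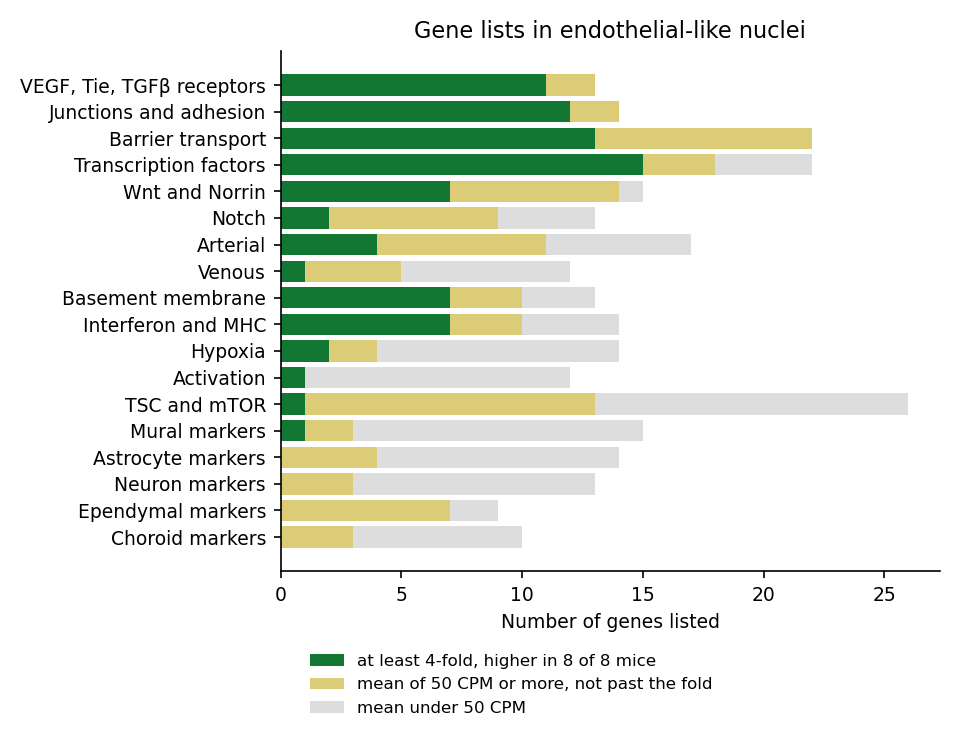
Number of listed genes (x axis) in 18 gene lists, split into genes past the fold (green), genes with a mean of 50 CPM or more that were not past that fold (yellow) and genes under 50 CPM in members (grey). The transcription factor list has 15 genes past the fold and the astrocyte, neuron, ependymal and choroid lists none.

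Genes of the TSC and mTOR pathway, which sense growth factors and nutrients, were for the most part close to the other nuclei. Of 26 genes, 13 had a mean of 50 CPM or more, with a median log2 ratio of 0.34 beside 0.30 over all genes at that level, and only *Igf1r*, the receptor for insulin-like growth factor 1, was past the fold. *Igf1r* had 222 of 89038 UMIs in *Tsc2* wt/wt mouse 1, its lowest level, and stood at 4100, 2795 and 4088 CPM in *Tsc2* wt/wt mice 2 to 4 and at 4421, 4528, 4768 and 3240 CPM in *Tsc2* mut/mut mice, against 255 CPM in the other nuclei (log2 ratio 3.97). It was detected in 97.3% of members, and its ranges overlapped between genotypes. *Insr*, the insulin receptor, had a log2 ratio of 1.97 and was past the fold, as the second gene of the list, without the 9 nuclei.

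Other cell types left traces in some members. With at least 5 UMIs of another type's markers as the limit, 51 of 110 nuclei had such traces, and no doublet caller was run. The mural cells (pericytes and smooth muscle) that wrap vessels were represented mainly by *Rgs5*, at 426 CPM ± 281 with UMIs in 43.6% of members, and 109 of its 230 UMIs lay in 3 nuclei. Of the other 14 mural genes listed none was past the fold. Only 3 of the 15 listed had the mean of 50 CPM that the fold required. Of all genes at that level, 10.9% were past the fold. After *Rgs5* the most abundant were *Dlc1*, at 395 CPM (log2 ratio 1.87), *Vtn*, at 104 CPM (2.00), and *Higd1b*, at 29.6 CPM (1.69), and the lowest ratio was that of *Pdgfrb* (−0.91), named after its value was seen. The 6 mural markers used for this limit markers summed to 101, 706, 1014 and 268 CPM in *Tsc2* wt/wt mice and to 290, 834, 474 and 276 CPM in *Tsc2* mut/mut mice, and among the other nuclei none was mural-like, with 5 or more UMIs of mural markers, more than of any other type, and fewer than 4 UMIs of 10 endothelial markers. Fibroblast markers summed to 345 CPM in *Tsc2* mut/mut mouse 4 and to between 0 and 50.4 CPM in the other 7 mice, with *Col1a1* and *Slc47a1* at 0. Haemoglobin and *Alas2* UMIs, a sign of red blood cells, summed to 2392, 21877.3, 0 and 0 CPM in *Tsc2* wt/wt mice and to 2847, 5760, 61.1 and 38808.9 CPM in *Tsc2* mut/mut. They came from few nuclei, as 1136 of 1934 UMIs of *Hbb-bs* lay in 3. With the haemoglobin genes left out of the counts, the genotype fit described below called 1 gene, *Kcnip4*, as with them.

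Astrocyte markers were the type with the most members at the limit, 15 of 110. Their 6 markers, 3 of them genes of the rule, summed to 393, 364, 248 and 420 CPM in *Tsc2* wt/wt mice and to 504, 448, 688 and 758 CPM in *Tsc2* mut/mut mice. The groups did not overlap. Without the 9 nuclei the highest *Tsc2* wt/wt mouse was at 420.3 CPM and the lowest *Tsc2* mut/mut mouse at 420.9 CPM. The most abundant of these markers was *Slc1a2*, a glutamate transporter gene, at 380 CPM against 3348 CPM in the other nuclei, and its log2 difference by genotype was 0.81 (SE 0.32, edgeR adjusted p = 0.581). No astrocyte marker was at 0 over all members. Beyond the results without members at the limit, the part of astrocyte RNA in the genotype comparisons was not tested.

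The second question was whether members of *Tsc2* mut/mut mice expressed genes at other levels than those of *Tsc2* wt/wt mice. *Tsc2* itself had 7 UMIs over the *Tsc2* wt/wt members and 6 over the *Tsc2* mut/mut members. In mice 1 to 4 these were 1, 3, 0 and 3 UMIs in *Tsc2* wt/wt mice and 4, 2, 0 and 0 in *Tsc2* mut/mut, too few to compare. As 3′ tags they need not read the part of the gene that recombination removes, so they check no label. Whether the members of *Tsc2* mut/mut mice had themselves lost *Tsc2* was not tested. *Tsc2* lies on chr17:24595816-24632630, minus strand (GRCm38, GENCODE M21, as for the genes below).

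In the edgeR quasi-likelihood fit on UMIs summed per mouse, 1 of 1316 genes tested passed an adjusted p of 0.05 (0.0760%), and 94 had an unadjusted p under 0.05. That gene was *Kcnip4* (ENSMUSG00000029088, chr5:48389502-49524907, minus strand), which encodes an interacting protein of voltage-gated potassium channels and is known from neurons. Members had 41, 57, 40 and 8 UMIs of *Kcnip4* in *Tsc2* wt/wt mice 1 to 4, or 461, 415, 902 and 306 CPM, and no UMI in any of the 4 *Tsc2* mut/mut mice. The groups did not overlap. Summed over the group, *Tsc2* mut/mut was at least 39.3-fold lower, with 3 counts over the group as its floor (edgeR, adjusted p = 2.55e-07).

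Part of this signal lay in nuclei that were not endothelial by their other genes. Without the 9 nuclei with *Mecom* alone, *Kcnip4* had 13, 57, 0 and 8 UMIs in *Tsc2* wt/wt mice, in 18 nuclei, and 0 in *Tsc2* mut/mut, at least 23.0-fold lower by the same floor. It then missed the count filter, and edgeR called 0 of 1192 genes (80 had an unadjusted p under 0.05), while without that filter *Kcnip4* was called again (adjusted p = 1.20e-09). With all 110 members and no filter, 137 of 14360 genes were called (0.954%), among them the cilia genes *Dnah7a*, *Spag17*, *Cfap54* and *Hydin*, named after their values were seen. *Kcnip4* in the other nuclei stood at 2265, 3324, 700 and 3295 CPM in *Tsc2* wt/wt mice and at 704, 1346, 667 and 12.8 CPM in *Tsc2* mut/mut, with overlap. Free RNA held 226, 110, 94.4 and 169 CPM in *Tsc2* wt/wt mice and 35.7, 49.1, 45.3 and 16.2 CPM in *Tsc2* mut/mut, without overlap, and the part of free RNA in the result was not tested. In a fit of the genotype difference in members against that in other nuclei, with mouse as a block, *Kcnip4* did not pass (log2 difference −9.62, SE 2.31, edgeR adjusted p = 0.994).

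*Kcnip4* was 1 of the 6 neuron markers, whose sum was 550, 510, 924 and 344 CPM in *Tsc2* wt/wt mice and 12.6, 24.9, 15.3 and 138 CPM in *Tsc2* mut/mut. With *Kcnip4* and the 9 nuclei left out, the rest of that sum was 46.5, 22.4, 0 and 38.2 CPM in *Tsc2* wt/wt mice and 14.5, 24.9, 15.3 and 138 CPM in *Tsc2* mut/mut, with overlap. Of the 6 markers *Syt1* had no UMI. In the longer list of 13 neuron genes 11 had UMIs. The most abundant after *Kcnip4* were *Camk2a*, at 130 CPM with UMIs in 40.9% of members, and *Nrgn*, at 71.1 CPM with UMIs in 28.2%. Both were lower than in the other nuclei, which held 266 CPM of *Camk2a* (log2 ratio −1.45) and 170 CPM of *Nrgn* (−1.26).

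**Figure D5:**
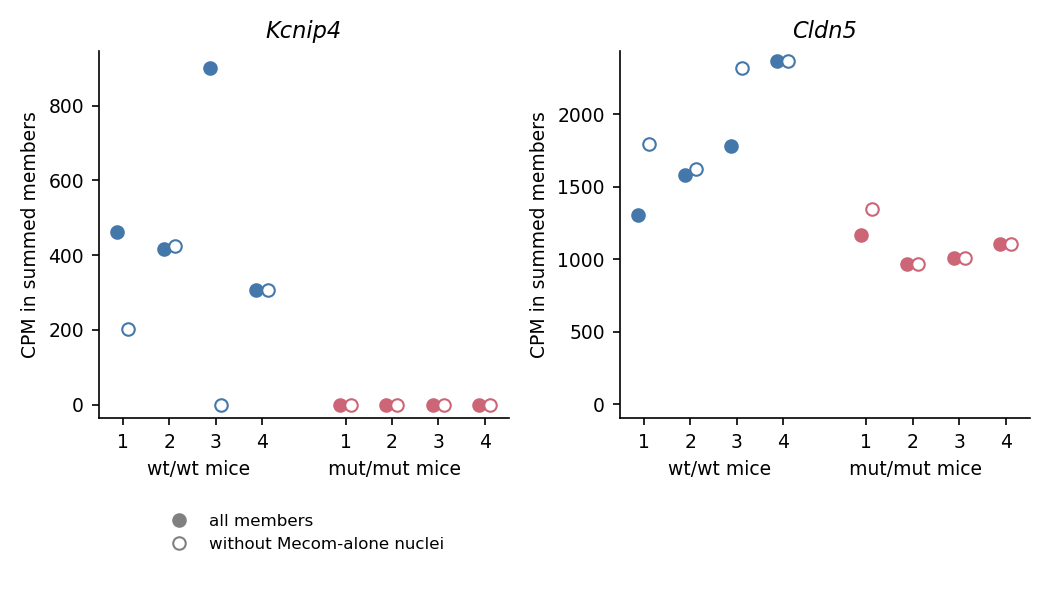
Levels of *Kcnip4* (left) and *Cldn5* (right) in the summed members of each mouse (y axis, CPM), with filled points for all members and open points without nuclei with *Mecom* alone. *Kcnip4* is at 0 in all 4 *Tsc2* mut/mut mice and, among open points, also in *Tsc2* wt/wt mouse 3, and *Cldn5* is lower in each *Tsc2* mut/mut mouse than in any *Tsc2* wt/wt mouse.

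No other gene passed, and the next 9 genes by p are given as values. *Cldn5* (chr16:18776847-18778262, plus strand) stood at 1303, 1580, 1781 and 2369 CPM in *Tsc2* wt/wt mice and at 1171, 970, 1009 and 1103 CPM in *Tsc2* mut/mut. The ranges did not overlap, and the log2 difference was −0.76 (SE 0.25, edgeR adjusted p = 0.567). Full separation of 4 mice from 4 has an exact permutation p of 0.0286. Some of 1316 genes would therefore separate without a genotype difference, and the share that did is not given here. Without the 9 nuclei it was −0.83 (edgeR adjusted p = 0.562). *Cldn5* was 1 of the genes that chose the members, so neither fit is a free test of it. The rule left the other nuclei with 0, 3, 0 and 3 UMIs of *Cldn5* in *Tsc2* wt/wt mice and 2, 0, 0 and 0 in *Tsc2* mut/mut. On these few UMIs its log2 difference in the interaction fit was 0.63 (SE 0.80, edgeR adjusted p = 0.994), which decides nothing. *Lrp8*, a receptor for reelin and apolipoprotein E, stood at 213, 240, 203 and 611 CPM in *Tsc2* wt/wt mice and at 101, 87.1, 138 and 0 CPM in *Tsc2* mut/mut (edgeR adjusted p = 0.477). *Cd200*, a surface protein that restrains myeloid cells, was the only one of the 9 with a higher mean in *Tsc2* mut/mut, 335 CPM ± 100 against 153 CPM ± 60.2 (n = 4 each, edgeR adjusted p = 0.567).

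The other 6 of the 9 had log2 differences from −0.97 to −1.55 and edgeR adjusted p values from 0.422 to 0.567. They were *Cdc14a* (a phosphatase), *Syne1* (nesprin 1 of the nuclear envelope), *Tnpo1* (a nuclear import receptor), *Fut8* (a fucosyltransferase), *Afap1l2* (an adaptor protein of actin) and *St6galnac3* (a sialyltransferase). *Syne1* was at 3010 and 2547 CPM in *Tsc2* wt/wt mice 1 and 3, which held 6 of the 9 nuclei with *Mecom* alone, and between 581 and 1070 CPM in all other mice. Without these nuclei its log2 difference was −0.47.

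By list, no gene of the endothelial lists passed the genotype test. Genes of the rule are left out of the medians here, since their UMIs chose the members. The median log2 difference was −0.05 for 10 VEGF, Tie and transforming growth factor receptors tested. It was 0.01 for 19 barrier transport genes and −0.02 for 10 junction and adhesion genes. For 11 transcription factors the median was 0.10, and for 7 Wnt and Norrin genes it was 0.02. It was −0.28 for 7 basement membrane genes, 6 of which were lower in *Tsc2* mut/mut, and −0.35 for 6 interferon and MHC genes, all 6 lower. Over all 1316 genes tested the median was −0.02, with 680 lower and 636 higher. Of 26 TSC and mTOR genes 6 could be tested, with 0 called and a median of 0.32.

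Whether a genotype difference was particular to the members was tested for each gene by the interaction of genotype with nucleus class. edgeR called 0 of 1316 genes (0%), and 44 had an unadjusted p under 0.05. The same test with the 101 members called 0 of 1192, with 34 at an unadjusted p under 0.05.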

How the data were processed

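Single nuclei RNA sequencing libraries (10x Genomics 3′ v3.1) of 8 mice were analysed. The authors aligned the reads to GRCm38 (mm10) with Cell Ranger 7.0.1, forced to 60000 barcodes per library, and deposited unnormalized UMI counts per gene and barcode. Their later clustering in Seurat 4 was not used. The members and gene lists were chosen with earlier results of these data known.

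Counts were summed per mouse over members and over other nuclei and scaled to CPM (Python 3.11.15, numpy 2.4.6, pandas 2.3.3, scipy 1.17.1). No doublet caller was run. Shares and medians were compared by two-sided exact permutation tests over the 70 assignments of mice. Genotype and its interaction with nucleus class were fitted with edgeR 4.0.16 (R 4.3.3, TMM, low-count filter, quasi-likelihood test, Benjamini-Hochberg, threshold 0.05), with DESeq2 1.42.0 as an alternative. Library totals ran from 11182335 to 36773832 UMIs. Summed members had 26173 to 137311 UMIs in *Tsc2* wt/wt and 14507 to 80383 in *Tsc2* mut/mut mice. The genes named were the 8 genes of the rule, the 25 with the highest ratio past the fold, the 10 with the smallest genotype p, *Tsc2*, and, of each list, the 4 with the highest level and those past the fold. Genes outside this rule, such as *Mfsd2a*, *Bmx*, *Efnb2*, *Pdgfrb*, the cilia genes and genes without UMIs, were named after their values were seen. Gene coordinates were from GENCODE M21. Both fits were tested on simulated data.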

Additional observations from a re-analysis of the deposited data

Results flagged for a closer look

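In 8 of 56 groups of 4 mice, 1 mouse stood apart from the other 3 by its gap relative to the range, where chance gives about 1 in 20 groups. Among single genes, *Slco1a4* was at 3086 CPM in *Tsc2* mut/mut mouse 1 against 3782 to 3860 CPM in the other mice of its genotype. *Lrp8* was at 611 CPM in *Tsc2* wt/wt mouse 4 against 203 to 240 CPM, and *Fut8* was at 1528 CPM in the same mouse against 629 to 744 CPM. That mouse had 5 members.

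The other 5 were marker sums of other cell types. Blood markers summed to 21877.3 CPM in *Tsc2* wt/wt mouse 2 against 0 to 2392 CPM, and to 38808.9 CPM in *Tsc2* mut/mut mouse 4 against 61.1 to 5760 CPM. Neuron markers summed to 138 CPM in *Tsc2* mut/mut mouse 4 against 12.6 to 24.9 CPM. That value lay below the 207 CPM that 3 counts make in this mouse. Choroid markers summed to 5542 CPM in *Tsc2* mut/mut mouse 1 against 0 to 174 CPM, and ependymal markers summed to 605 CPM there against 0 in the other 3. This mouse held the 2 nuclei with *Mecom* alone and choroid plexus UMIs.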

How the results depend on the processing

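The difference in share kept its sign in 11 of 12 alternatives other than leaving out a mouse. It turned to 0.237 percentage points (exact permutation p = 0.543) without members that had 5 UMIs of another type. Without each mouse in turn it ran from −1.11 to −0.190 points, the difference in median UMIs from −1232 to −140 and that in median mitochondrial share from 1.88 to 6.29 points.

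The genotype fit called 1 gene in 9 of 13 such alternatives, DESeq2 included. It called 137 of 14360 genes (9 higher in *Tsc2* mut/mut) without the low-count filter, 0 of 418 without members with 5 UMIs of another type (a setting in which *Kcnip4*, a neuron marker behind that limit, was not tested), 0 with at least 2 of the 5 genes, and 4 with at least 2 genes and no filter, *Ptgds*, *Ciart*, *Kcnip4* and *Bmp6*. Leaving out a mouse gave 1 to 3 calls: *St6galnac3* joined without *Tsc2* wt/wt mouse 1, *Syne1* and *2210408I21Rik* without mouse 2, and *Csmd1* and *Arhgap6* without mouse 4. The interaction called 52 genes without the filter and 0 to 1 without a mouse, the 1 being *Adamts20* without *Tsc2* wt/wt or *Tsc2* mut/mut mouse 4. The causes were not tested. With under 15% mitochondrial UMIs, *Tsc2* mut/mut mouse 4 had no members and was left out.

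The number of genes past the fold was 207 with a pseudocount of 50 CPM, 223 without members with 5 UMIs of another type, 1310 against the barcodes with 30% or more mitochondrial UMIs, 263 with a minimum of 200 CPM, and 406 to 443 without each mouse.

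With the replicate number as a block, the share difference was −0.571 points (exact sign-flip test of the same-number differences, p = 0.5). So few differences keep the p of that test above 0.05. The genotype fit called 1 gene and the interaction 0. Same-numbered mice did not deviate together (correlations across genes of 0.06, 0.01, 0.05 and −0.06). These sums rest on few members in some mice, so the correlations cannot tell whether same-numbered mice were handled together. The labels give them only a shared number.

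With 5 to 27 members a mouse, 1316 genes passed the low-count filter, of 14360 with any UMI in members.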
